A study of Mus musculus with 2 samples.

Results

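The replication-type histone genes are the 67 of 32285 features in the deposited gene list whose symbol starts with Hist1, Hist2, Hist3 or Hist4. They were taken by symbol, not by a measured value. By class they are 6 linker histone H1 genes, 18 H2A genes, 18 H2B genes, 12 H3 genes and 13 H4 genes. In GRCm38 (mm10), 54 of them lie in the Hist1 cluster on chromosome 13, 10 in the Hist2 cluster on chromosome 3, 2 in the Hist3 cluster on chromosome 11, and Hist4h4 alone on chromosome 6.

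The study measured single-cell RNA, as unique molecular identifiers (UMIs, a count of captured mRNA molecules), in CD45+ cells isolated magnetically from mouse hearts. One library came from mice with splenectomy and one from mice with sham surgery. Both groups were wild-type male C57BL/6J mice aged 8 weeks, and both underwent 60 min of occlusion of the left anterior descending coronary artery followed by 24 h of reperfusion. How many animals gave cells to each library is not known here, and with 1 library per group no difference between them has a replicate check and no p-value was computed. After filtering, 4805 cells with 44776342 UMIs remained in the splenectomy library and 5838 cells with 49251503 UMIs in the sham library. The median cell held 7219 UMIs in the splenectomy library and 4988 in the sham library. Ptprc, which encodes the CD45 protein used for the isolation, had a UMI in 79.4% of splenectomy cells and 79.7% of sham cells. The filtered barcodes of the 2 libraries shared 9 sequences.

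Histones package DNA: H2A, H2B, H3 and H4 form the protein core of the nucleosome, and H1 binds the linker DNA between nucleosomes. Replication-type histone genes are transcribed mainly in S phase, when new DNA must be packaged, and their mRNAs normally end in a conserved stem-loop instead of a poly(A) tail. The stem-loop is bound by the stem-loop binding protein Slbp, and some of these genes can also give longer, polyadenylated transcripts in cells that have left the cell cycle. The 3′ kit used here primes on poly(A), so a UMI counts a captured transcript end and not the whole pool of histone mRNA. UMIs at a transcript's end were not divided by length, and levels are given as CPM, the UMIs of a gene per 1000000 UMIs of the same cells.

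The histone stem-loop was searched for after the stop codon in the longest GENCODE vM21 coding transcript of each gene. In members the whole part after the stop codon was searched, and in other coding genes only its first 100 bases. The stem-loop was found in 43 of the 67 members and in 3 of 20849 other coding genes (0.0144%). Other genes with under 16 bases after the stop codon were left out, but the 67 include 15 members whose models end at most 2 bases after it. The stem-loop of 16 bases began 21 to 58 bases after the stop codon, with a median of 31. The most common form was shared by 25 members of all classes but H4. A form with the same loop whose stem opens with GGCC was found in 7 members, all of them H4 genes. Hist1h4i and Hist2h4 shared a form that also opens with GGCC but has a variant loop. The sites of members whose levels are described below are printed 5′ to 3′ on the coding strand, with the stem-loop in capitals, to show how little these ends differ between members with very different levels:
Hist1h2ap: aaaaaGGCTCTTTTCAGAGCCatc
Hist1h1c: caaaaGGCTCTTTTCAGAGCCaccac
Hist2h2aa1: aaaaaGGCTCTTTTCAGAGCCaccca
Hist1h4d: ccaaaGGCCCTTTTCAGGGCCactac
Hist1h4i: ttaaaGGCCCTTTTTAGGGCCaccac
Hist1h3c: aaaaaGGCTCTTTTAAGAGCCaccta

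In GRCm38 these stretches lie at chr13:21833026-21833049 on the minus strand (Hist1h2ap), chr13:23739507-23739532 on the plus strand (Hist1h1c), chr3:96246027-96246052 on the plus strand (Hist2h2aa1), chr13:23581945-23581970 on the plus strand (Hist1h4d), chr13:22040961-22040986 on the minus strand (Hist1h4i) and chr13:23745042-23745067 on the minus strand (Hist1h3c). The annotated 3′ ends differed more than the stem-loops did. In 22 members the annotated transcript ran on for more than 100 bases after the stem-loop, and these held 12872 of the 25743 histone UMIs. Another 21 members ended within 100 bases after it and held 21.1%, and 9 members with a longer 3′ part but no stem-loop in that part held 23.7%. The remaining 15 gene models ended at most 2 bases after the stop codon and held 5.18%. The member with most UMIs, Hist1h2bc, lies at chr13:23684199-23692908 on the plus strand. Its longest coding transcript, the only one searched, has 2 exons and a 3′ part of 742 bases, and has no stem-loop in that 3′ part.

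RefSeq promoter windows, 250 bases before to 50 bases after the transcription start on GRCm38.p6, were matched to 62 members. For a gene with several windows, only the first listed was counted. A CCAAT box (CCAAT on either strand) was found in the windows of 6 of 6 H1, 18 of 18 H2A, 16 of 16 H2B and 10 of 10 H3 genes, but in 3 of 12 H4 genes (25.0%), against 37.8% of 26963 other genes. The octamer ATTTGCAT was found on either strand in 7 of 18 H2A and 6 of 16 H2B windows and in no H1, H3 or H4 window, against 1.71% of other genes. The H2B gene Hist1h2be has no octamer in its counted window but has one in its other window, which was not counted. The H1 box AAACACA was found in 5 of 6 H1, 2 of 18 H2A and 2 of 16 H2B windows, against 7.12% of other genes. The motif TATAAA was found in 4 of 6 H1, 11 of 18 H2A, 8 of 16 H2B, 4 of 10 H3 and 8 of 12 H4 windows, against 14.1% of other genes. Such a match is a string of letters and no evidence of a bound factor. The 150 bases before the start are printed for 3 members that stand for the patterns described below, with H1 box, CCAAT and TATAAA matches in capitals: Hist1h1b, whose UMIs lay mostly in cells with Mki67 or Top2a, Hist1h1c, which differed little between these cells and the rest, and Hist1h4i, which was high in neutrophil-like cells:
Hist1h1b: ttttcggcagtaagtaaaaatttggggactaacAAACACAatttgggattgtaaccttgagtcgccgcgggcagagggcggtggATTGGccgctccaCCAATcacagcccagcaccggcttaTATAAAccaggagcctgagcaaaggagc
Hist1h1c: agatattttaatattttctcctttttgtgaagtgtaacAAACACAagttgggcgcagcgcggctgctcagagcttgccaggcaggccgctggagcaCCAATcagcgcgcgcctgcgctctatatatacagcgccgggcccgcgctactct
Hist1h4i: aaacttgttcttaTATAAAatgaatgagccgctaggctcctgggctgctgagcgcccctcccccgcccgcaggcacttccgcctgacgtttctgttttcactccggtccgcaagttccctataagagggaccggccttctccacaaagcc

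These stretches lie at chr13:21780626-21780775 on the minus strand (Hist1h1b), chr13:23738657-23738806 on the plus strand (Hist1h1c) and chr13:22041363-22041512 on the minus strand (Hist1h4i). The Hist1h1b and Hist1h1c stretches hold both the H1 box and a CCAAT match, while that of Hist1h4i holds neither and has its TATAAA match far from the start.

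Over all kept cells, histone genes gave 11896 UMIs in the splenectomy library and 13847 in the sham library. That was 265.7 CPM (95% exact Poisson interval 261 to 270) in the splenectomy library and 281.1 CPM (276 to 286) in the sham library (log2 -0.08, -0.12 to -0.05), where the intervals here and below cover counting error only. Per cell this was 2.48 histone UMIs in the splenectomy library and 2.37 in the sham library, so the per-cell mean and the CPM stood in opposite order in libraries of unequal depth. At least 1 histone UMI was seen in 68.3% of splenectomy cells and 67.0% of sham cells.

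H2B genes held the largest share of histone UMIs, 29.9% in the splenectomy library and 30.2% in the sham library. H2A genes held 24.4% and 25.8%, in the same order of libraries, and H1 genes held 21.6% and 19.6%. H4 genes held 18.6% of histone UMIs in the splenectomy library and 19.8% in the sham library, and H3 genes held the smallest share, 5.61% and 4.61%. The nucleosome itself holds equal amounts of the 4 core histones, so these shares describe captured transcript ends.

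A few members carried most of the signal. The 20 members with at least 200 UMIs over both libraries held 89.6% of the 25743 histone UMIs, and the 5 highest held 54.8%. A further 23 members had 50 to 199 UMIs, 20 had 1 to 49, and 4 had none: Hist1h2bq, and Hist1h1t, Hist1h2ba and Hist1h2aa, which are known as testis histone genes. Under 10% of the 50-base words of the Hist1h2bq transcript are found in no other annotated transcript, so its lack of UMIs says little about its level. The 43 members with at least 50 UMIs, which alone are given by ratios below, were 5 H1, 9 H2A, 12 H2B, 10 H3 and 7 H4 genes.

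Among the linker histones, Hist1h1c was highest, at 30.6 CPM (1368 UMIs) in the splenectomy library and 27.9 CPM (1375 UMIs) in the sham library. Hist1h1e stood at 16.5 CPM in the splenectomy library and 15.1 CPM in the sham library, and its exons overlap those of Hist1h2be on the same strand. Hist1h1b stood at 6.95 and 8.89 CPM and Hist1h1d at 2.14 and 2.21 CPM, again splenectomy before sham. Hist1h1b UMIs were concentrated: 1.62% of splenectomy cells and 1.28% of sham cells had one, and the 1% of cells with most held 90.7% and 96.3% of its UMIs.

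Of the H2A genes, Hist1h2ap had 21.9 CPM (980 UMIs) in the splenectomy library and 28.1 CPM (1383 UMIs) in the sham library, and 76.1% and 82.4% of its UMIs lay in 1% of the cells. Only 6.93% of the 50-base words of its transcript are found in no other annotated transcript. Most of its length thus cannot be told from near-identical copies, and how this moved its count was not tested. Hist3h2a had 11.8 CPM in the splenectomy library and 14.2 CPM in the sham library, and its exons overlap Trim17 on the same strand. Hist2h2aa1, with 10.6% of its words unique, had 12.4 CPM in the splenectomy library and 11.02 CPM in the sham library, and was spread over 10.2% of splenectomy cells and 8.20% of sham cells. Hist1h2ae had 7.57 and 9.44 CPM and Hist2h2ac 4.29 and 3.51 CPM, splenectomy before sham.

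Of the H2B genes, Hist1h2bc was the highest of all members, at 55.9 CPM (2501 UMIs) in the splenectomy library and 61.3 CPM (3017 UMIs) in the sham library. It had a UMI in 25.2% of splenectomy cells and 26.2% of sham cells, and the top 1% of cells held only 21.5% and 17.3% of its UMIs. Hist1h2be followed at 8.78 CPM in the splenectomy library and 8.37 CPM in the sham library. Hist1h2bj, Hist3h2ba and Hist2h2bb, whose exons overlap Gm42743 on the same strand, lay between 2.12 and 2.95 CPM in both libraries.

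Of the H4 genes, Hist1h4i had 18.4 CPM (825 UMIs) in the splenectomy library and 23.7 CPM (1165 UMIs) in the sham library. Hist1h4d had 14.003 and 15.3 CPM, Hist1h4h 5.18 and 5.58 CPM, Hist1h4c 4.15 and 3.88 CPM and Hist4h4 2.57 and 3.05 CPM, splenectomy before sham. Hist1h3e was the only H3 gene with at least 200 UMIs, at 5.87 CPM in the splenectomy library and 4.32 CPM in the sham library, and 26.6% of its words are unique. H4 and H3 genes code for nearly the same protein within each class, and the members are told apart by their noncoding ends and silent changes.

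The set was then divided by whether a cell had a UMI of Mki67, which encodes a proliferation antigen, or of Top2a, a topoisomerase used in replication and chromosome separation. Such cells numbered 356 of 4805 (7.41%) in the splenectomy library and 352 of 5838 (6.03%) in the sham library. They held 12.0% of all UMIs and 23.5% of histone UMIs in the splenectomy library, and 10.3% of all UMIs and 27.3% of histone UMIs in the sham library. The depth differed between the sides: a median of 13896 UMIs with and 6347 without in the splenectomy library, and 13270.5 with and 4664.5 without in the sham library.

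Histone genes stood at 520.6 CPM in splenectomy cells with a Mki67 or Top2a UMI and 230.9 CPM in those without, a log2 ratio of 1.17 (1.11 to 1.23). In the sham library they stood at 745.3 CPM with and 227.8 CPM without, a log2 ratio of 1.71 (1.66 to 1.76). The cells without the 2 genes were nearly at the same level in both libraries, and those with them were not. Of the 27 members with at least 50 UMIs within the splenectomy library, 13 were at least 1.5-fold higher in cells with Mki67 or Top2a, against 11.5% of all 11003 features tested, and 3 were at least 1.5-fold lower, against 9.58%. Of 30 members in the sham library, 21 were at least 1.5-fold higher, against 11.9% of 11141 features, and 1 was lower, against 10.6%. The median log2 ratio was 0.34 over the members and 0.12 over all features in the splenectomy library, and 1.46 over the members and 0.08 over all features in the sham library.

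The histone classes differed in this contrast. H2A genes had 212.4 CPM with and 44.5 CPM without in the splenectomy library (log2 2.25), and 338.5 CPM with and 42.0 CPM without in the sham library (log2 3.01). H1 genes had 117.9 CPM with and 49.2 CPM without in the splenectomy library (log2 1.26), and 173.2 with and 41.4 without in the sham library (log2 2.06). H3 genes had 34.8 with and 12.2 without in the splenectomy library (log2 1.51), and 40.6 with and 9.80 without in the sham library (log2 2.05). H4 genes showed a smaller ratio, with 69.4 CPM with and 46.6 CPM without in the splenectomy library (log2 0.57) and 101.1 with and 50.5 without in the sham library (log2 1.0). The interval of the H2B ratio held 0 in both libraries: 86.1 CPM with and 78.4 CPM without in the splenectomy library (log2 0.14, -0.01 to 0.28), and 92.0 with and 84.1 without in the sham library (log2 0.13, -0.01 to 0.27).

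Among the 43 members, the counting interval of the ratio lay above 0 in both libraries for 21: 5 of 5 H1, 5 of 9 H2A, 4 of 12 H2B, 6 of 10 H3 and 1 of 7 H4 genes, against 16.3% of 12183 features with at least 50 UMIs over both libraries. It lay below 0 in both for 2 members, Hist2h2aa1 and Hist1h4i, against 8.95% of features. The ratio was over 4-fold in both libraries for 7 members, 1 of them H1, 3 H2A, 1 H2B and 2 H3, against 1.07% of features.

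Hist1h2ap had 124.8 CPM in splenectomy cells with Mki67 or Top2a and 7.84 CPM in those without, a log2 ratio of 3.99 (3.80 to 4.19). In the sham library it had 215.3 CPM with and 6.56 CPM without, a log2 ratio of 5.04 (4.85 to 5.23), so that cells with Mki67 or Top2a held 68.5% of its splenectomy UMIs and 79.0% of its sham UMIs. Hist1h1b had 42.2 CPM with and 2.13 CPM without in the splenectomy library (log2 4.31), and 75.1 with and 1.29 without in the sham library (log2 5.86). These were the H2A and the H1 gene most confined to such cells among the members with at least 200 UMIs. Hist1h2ae had 40.7 CPM with and 3.05 CPM without in the splenectomy library (log2 3.74), and 60.9 with and 3.53 without in the sham library (log2 4.11). Hist1h4d was the H4 gene with the largest ratio, at 39.8 CPM with and 10.48 CPM without in the splenectomy library (log2 1.92) and 63.2 with and 9.80 without in the sham library (log2 2.69). Hist1h1e had 30.3 CPM with and 14.6 CPM without in the splenectomy library (log2 1.05), and 46.3 with and 11.5 without in the sham library (log2 2.0). Without the 5 cells of each side with most histone UMIs, its splenectomy ratio turned to -0.12 (-0.50 to 0.25).

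Several members showed the opposite order or little difference. Hist1h2bc had 50.4 CPM with and 56.6 CPM without in the splenectomy library (log2 -0.17, an interval that holds 0), and 43.3 with and 63.3 without in the sham library (log2 -0.55). Hist1h4i had 12.8 CPM with and 19.2 CPM without in the splenectomy library, and 16.4 with and 24.5 without in the sham library (log2 -0.58) in each. Hist2h2aa1 had 8.18 with and 13.02 without in the splenectomy library (log2 -0.67), and 8.08 with and 11.4 without in the sham library (log2 -0.49). The order of Hist2h2aa1 turned where cells with at least 1 UMI of each gene were taken (log2 0.14 in the splenectomy library and 0.73 in the sham library), and that of Hist1h4i turned there in the sham library (log2 0.53). All 3 were high in neutrophil-like cells, of which few had a Mki67 or Top2a UMI. Hist1h1c lay between the extremes, at 36.8 CPM with and 29.7 CPM without in the splenectomy library (log2 0.31) and 38.0 with and 26.8 without in the sham library (log2 0.51). Of the H3 genes, Hist1h3e had 10.4 CPM with and 5.25 without in the splenectomy library (log2 0.99), and 10.8 with and 3.58 without in the sham library (log2 1.60). Hist2h2ac had 7.25 CPM with and 3.88 without in the splenectomy library, and 12.2 with and 2.51 without in the sham library. Other named members with higher levels beside Mki67 or Top2a in both libraries were Hist1h2bj, at 8.74 with and 2.16 without in the splenectomy library and 9.46 with and 1.79 without in the sham library, and Hist1h1d, at 4.84 with and 1.78 without in the splenectomy library and 9.65 with and 1.36 without in the sham library. Without the 5 cells of each side with most histone UMIs, the splenectomy ratio of Hist1h1d turned to -0.30. Hist3h2a, the H2A gene on chromosome 11, was nearly level, at 11.7 with and 11.8 without in the splenectomy library and 13.2 with and 14.3 without in the sham library. Hist1h4c had 3.91 with and 4.19 without in the splenectomy library, but 5.71 with and 3.67 without in the sham library. Hist4h4, the lone member on chromosome 6, had 1.86 with and 2.67 without in the splenectomy library and 1.38 with and 3.24 without in the sham library. Hist1h3c, named after its values were seen, was nearly confined to these cells, with 29 UMIs with and 2 without in the splenectomy library and 48 with and 6 without in the sham library.

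**Figure D1:**
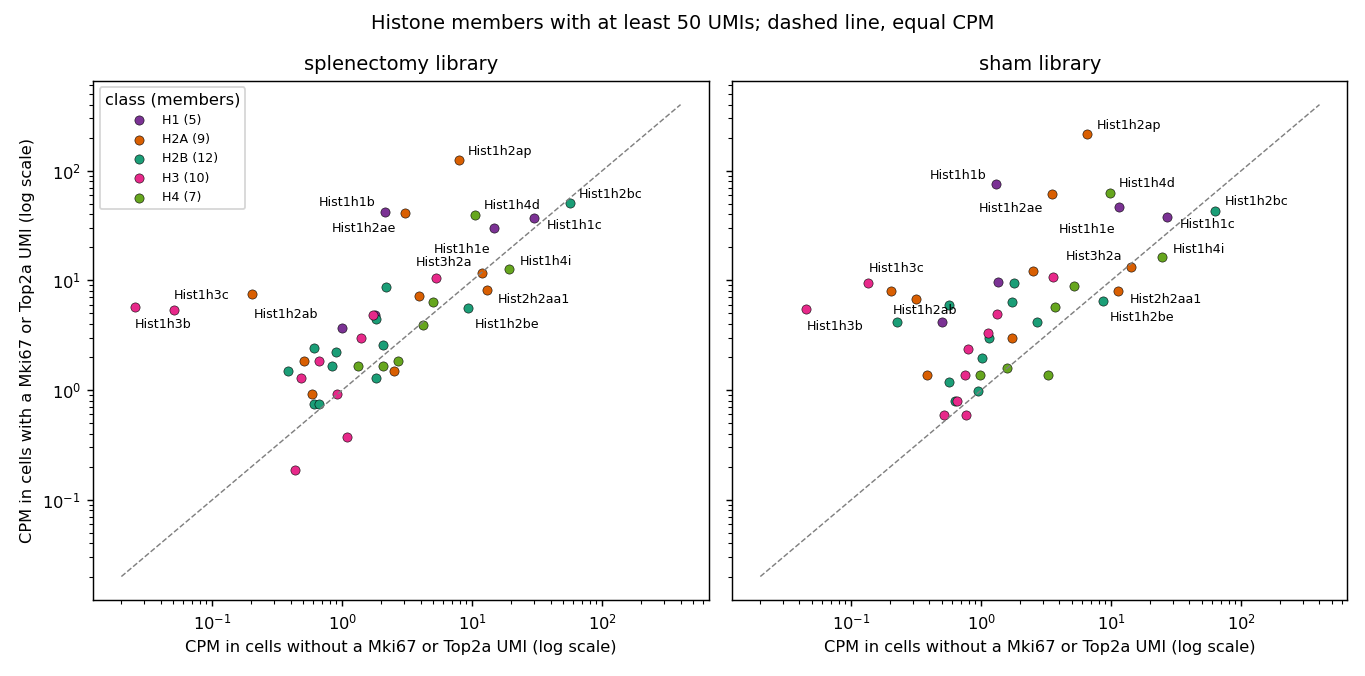
CPM of each of the 43 members with at least 50 UMIs in cells with a Mki67 or Top2a UMI (vertical axis) against cells without (horizontal axis), both axes logarithmic, in the splenectomy library (left) and the sham library (right), coloured by histone class. Points above the dashed line are higher in cells with a Mki67 or Top2a UMI: Hist1h2ap, Hist1h1b and Hist1h2ae lie far above it in both panels, and Hist1h4i and Hist2h2aa1 lie below it.

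Genes of the cell cycle gave the frame for these values, from lists grouped by function. Of 23 DNA replication genes tested in each library, 22 were at least 1.5-fold higher in cells with Mki67 or Top2a in both, with a median log2 ratio of 2.15 in the splenectomy library and 2.25 in the sham library. The highest were Tk1 in the splenectomy library, a thymidine kinase, at 8.18 CPM with and 0.431 without, and Rrm2 in the sham library, a subunit of ribonucleotide reductase, at 28.2 with and 0.792 without. The lowest was Slbp, the stem-loop binding protein, at 69.2 CPM with and 55.5 without in the splenectomy library and 74.1 with and 56.9 without in the sham library. Of 19 mitosis genes, 18 were at least 1.5-fold higher in each library, with a median log2 ratio of 3.89 in the splenectomy library and 3.86 in the sham library. The lowest was Cks2, at 74.2 CPM with and 95.3 without in the splenectomy library and 99.1 with and 155.7 without in the sham library.

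Genes that handle histones outside this set were less uniform by count. Of 15 histone chaperones, 7 in the splenectomy library and 9 in the sham library were at least 1.5-fold higher with Mki67 or Top2a, against 11.5% and 11.9% of all features, led by Asf1b, a chaperone of new H3 and H4, at 9.49 CPM with and 1.09 without in the splenectomy library and 12.8 with and 1.20 without in the sham library. Replacement histones are not confined to S phase and mostly have ordinary poly(A) mRNA. Of these, 3 of 10 in the splenectomy library and 3 of 9 in the sham library were at least 1.5-fold higher. Of 14 genes for the synthesis and processing of histone mRNA, 1 was higher and 1 lower in each library, close to the shares of all features (11.5% and 11.9% higher, 9.58% and 10.6% lower).

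Most of the histone excess of cells with Mki67 or Top2a sat in few cells. Cells with at least 50 histone UMIs, a limit set after the values were seen, numbered 10 in the splenectomy library and 15 in the sham library, and each had a Mki67 or Top2a UMI (9 and 15 had both). That no other cell lies beyond is set by the limit, which was put just above the highest cell without the 2 genes, and at a limit of 30 histone UMIs there were 11 cells with and 5 without in the splenectomy library and 18 with and 1 without in the sham library. They held 16.6% of all histone UMIs of the splenectomy library and 20.5% of those of the sham library. Each held 53 to 355 histone UMIs (median 188.5) in the splenectomy library and 64 to 353 (median 194) in the sham library, while the highest cell without Mki67 or Top2a held 49 and 48. The median cell held 1 histone UMI on either side of the division in both libraries.

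In these few cells, histone transcripts made up 0.339% to 1.51% of a cell's UMIs in the splenectomy library and 0.348% to 2.57% in the sham library. Their median depth was 28293.5 UMIs in the splenectomy library and 30817 in the sham library, and they held a median of 27 and 25 different members. H2A genes gave 48.1% of their histone UMIs in the splenectomy library and 51.7% in the sham library, against 19.3% and 18.4% in cells with neither gene. H2B genes gave 12.5% and 6.91%, against 33.9% and 36.9% in cells with neither, and Hist1h2ap alone gave 31.4% of the splenectomy and 35.3% of the sham histone UMIs of these cells. Deep cells are also where doublets would lie, and the cells that a doublet score removed were left out before.

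**Figure D2:**
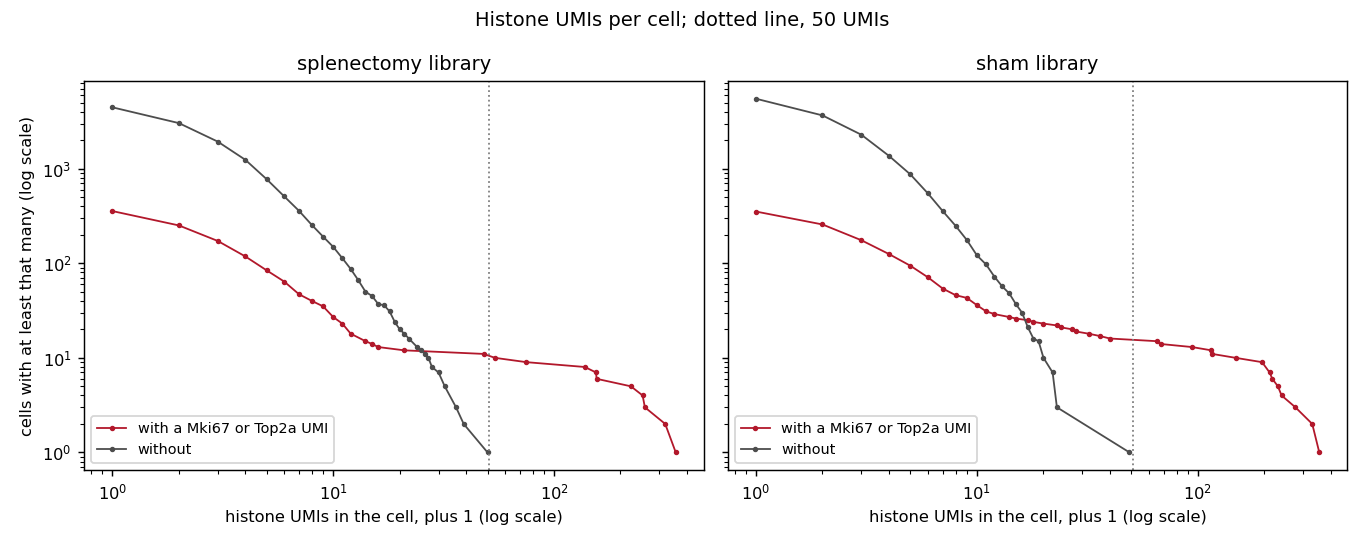
Number of cells (vertical axis, logarithmic) with at least a given number of histone UMIs plus 1 (horizontal axis, logarithmic), for cells with and without a Mki67 or Top2a UMI, in the splenectomy library (left) and the sham library (right). The dotted line marks 50 histone UMIs, a limit put just above the highest cell without either gene (49 in the splenectomy library and 48 in the sham library), with 10 splenectomy and 15 sham cells beyond it.

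The remaining cells with Mki67 or Top2a are given as a description only, since the limit removes cells from that side alone. Those under 50 histone UMIs, 346 in the splenectomy library and 337 in the sham library, stood at 161.8 CPM against 230.9 CPM without the 2 genes in the splenectomy library (log2 -0.51, -0.62 to -0.41). In the sham library they stood at 205.0 CPM against 227.8 CPM, a log2 ratio of -0.15 (-0.25 to -0.06). Cells with no histone UMI were 29.5% of those with and 31.9% of those without Mki67 or Top2a in the splenectomy library, and 27.0% and 33.4% in the sham library. At least 10 histone UMIs were found in 6.46% with and 2.54% without in the splenectomy library, and in 8.81% with and 1.77% without in the sham library. Among cells under 50 histone UMIs, the share with 10 to 49 was 3.76% with (13 of 346) and 2.54% without in the splenectomy library, and 4.75% with (16 of 337) and 1.77% without in the sham library.

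The cells with many histone UMIs were rich in both cell-cycle lists. The summed DNA replication list without Slbp stood at 1576 CPM in them, 545 CPM in the other cells with Mki67 or Top2a and 200.5 CPM in cells with neither in the splenectomy library. The same values were 3051, 543 and 231 CPM in the sham library. The summed mitosis list stood at 6183, 538 and 420 CPM in the splenectomy library and at 6075, 623 and 512 CPM in the sham library, in the same order of cells. Outside the few cells, those with Mki67 or Top2a thus stood above cells with neither on the summed replication list and closer to them on the summed mitosis list. The mitosis sum includes Cks2, which was lower in cells with Mki67 or Top2a in both libraries. In neutrophil-like cells without the 2 genes, Cks2 stood at 368.6 CPM in the splenectomy library and 606.8 CPM in the sham library. How far Cks2 moved the sum was not tested.

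By cell class, the cells with at least 50 histone UMIs were 7 macrophage-like, 2 B cell-like and 1 conventional dendritic cell-like in the splenectomy library. Those of the sham library were 3 T cell-like, 3 conventional dendritic cell-like, 3 monocyte-like, 2 macrophage-like, 2 natural killer cell-like, 1 fibroblast or mural cell-like and 1 unassigned cell. The names follow the summed UMIs of fixed marker lists in each cell, and a class is named as like a type. The 2 B cell-like cells held 64.2% of their class's histone UMIs in the splenectomy library, and the 3 T cell-like cells held 75.6% of theirs in the sham library. None was neutrophil-like.

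Within classes, the contrast by Mki67 or Top2a was not the same in both libraries. Macrophage-like cells had 618.9 CPM with (120 cells) and 172.4 CPM without in the splenectomy library (log2 1.84), and 349.3 CPM with (112 cells) and 149.9 CPM without in the sham library (log2 1.22). Monocyte-like cells had 115.9 CPM with (147 cells) and 142.3 CPM without in the splenectomy library (log2 -0.30), and 451.7 CPM with (113 cells) and 130.4 CPM without in the sham library (log2 1.79). The splenectomy library held no monocyte-like cell with at least 50 histone UMIs and the sham library held 3. Neutrophil-like cells had 476.1 CPM with (38 cells) and 446.7 CPM without in the splenectomy library (log2 0.09), and 394.9 with (51 cells) and 464.2 without in the sham library (log2 -0.23). Conventional dendritic cell-like cells had 1082 CPM with (15 cells) and 286.7 without in the splenectomy library, and 1286 with (24 cells) and 242.9 without in the sham library.

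Across classes without Mki67 or Top2a, the members that cells kept were different ones. Neutrophil-like cells had 446.7 histone CPM against 153.4 CPM in monocyte-like and macrophage-like cells combined in the splenectomy library (log2 1.54, 1.47 to 1.61). The sham library gave 464.2 CPM against 138.5 CPM, a log2 ratio of 1.74 (1.68 to 1.81). The H2B class differed most, at 237.8 CPM in neutrophil-like and 41.1 CPM in mononuclear cells of the splenectomy library (log2 2.53) and 247.9 against 40.7 CPM in the sham library (log2 2.61). H3 genes were in the opposite order, at 4.17 CPM in neutrophil-like and 9.61 CPM in mononuclear cells of the splenectomy library (log2 -1.20, from 26 and 283 UMIs) and 3.38 against 7.70 CPM in the sham library (log2 -1.19).

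Of 21 members with at least 50 UMIs in this contrast in the splenectomy library, 7 were at least 1.5-fold higher in neutrophil-like cells, against 20.7% of 10084 features, and 13 were at least 1.5-fold lower, against 57.1%. Sham cells had 7 of 18 members higher, against 21.9% of 10324 features, and 9 were lower, against 56.2%. The share of members lower was therefore close to that of all features. The median log2 ratio over all features was -0.93 in the splenectomy library and -0.87 in the sham library, and over the members it was -1.03 and -0.47.

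Hist1h2bc had 182.9 CPM in neutrophil-like and 28.7 CPM in mononuclear cells of the splenectomy library (log2 2.67), and 205.8 against 28.8 CPM in the sham library (log2 2.84). Hist1h4i had 66.4 against 9.99 CPM in the splenectomy library (log2 2.73), and 81.3 against 11.3 CPM in the sham library (log2 2.84). Hist1h2be had 44.6 against 1.80 CPM in the splenectomy library (log2 4.63), and 34.6 against 2.16 CPM in the sham library (log2 4.0). These are 2 H2B genes and 1 H4 gene of the chromosome 13 cluster. Hist2h2aa1, an H2A gene on chromosome 3, had 40.4 CPM in neutrophil-like against 6.79 CPM in mononuclear cells of the splenectomy library (log2 2.57), and 28.3 against 6.00 CPM in the sham library (log2 2.24). Hist1h1c had 65.6 against 18.7 CPM in the splenectomy library (log2 1.81), and 62.5 against 14.96 CPM in the sham library (log2 2.06). Hist1h4h had 8.98 against 3.06 CPM in the splenectomy library (log2 1.55), and 10.4 against 2.72 CPM in the sham library (log2 1.93).

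Members of the same classes were in the opposite order. Hist1h4d had 1.44 CPM in neutrophil-like and 9.34 CPM in mononuclear cells of the splenectomy library (log2 -2.69), and 2.004 against 8.07 CPM in the sham library (log2 -2.01). Hist1h1e had 4.97 against 11.6 CPM in the splenectomy library (log2 -1.22), and 2.88 against 8.90 CPM in the sham library (log2 -1.63). In mononuclear cells of at least 8000 UMIs, Hist1h1e had only 7.12 CPM in the splenectomy library and 5.11 CPM in the sham library. Hist2h2ac, of the same chromosome 3 cluster as Hist2h2aa1, had 0.321 against 3.67 CPM in the splenectomy library and 0.376 against 2.13 CPM in the sham library. In neutrophil-like cells H4 UMIs thus came mainly from Hist1h4i and H1 UMIs mainly from Hist1h1c. Hist1h3e had 0.641 against 4.38 CPM in the splenectomy library and 0.752 against 2.78 CPM in the sham library, and Hist1h4c had 0.481 against 3.94 CPM and 0.877 against 2.97 CPM.

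The 2 sides of this comparison differed in depth, with a median of 3741 UMIs in neutrophil-like and 12754 UMIs in mononuclear cells of the splenectomy library, and of 3301 and 12722 UMIs in those of the sham library. Over cells of 4000 to 7999 UMIs alone, neutrophil-like cells (571) had 394.8 CPM and mononuclear cells (181) had 206.3 CPM in the splenectomy library (log2 0.94, 0.73 to 1.15). Sham neutrophil-like cells (537) had 442.3 CPM and mononuclear cells (191) had 219.4 CPM, a log2 ratio of 1.01 (0.82 to 1.21). Within that window the median depth still differed, 4714 UMIs in neutrophil-like and 6426 UMIs in mononuclear cells of the splenectomy library and 4662 and 6472 UMIs in the sham library, and Gm42418, described below, took 3.49% and 5.52% of UMIs in the splenectomy library and 3.67% and 6.30% in the sham library. The ratios of summed histone CPM in the window were smaller than those over all depths in both libraries, but not those of every class and member. H3 genes had log2 ratios of -2.71 in the splenectomy library and -2.56 in the sham library, from 21 and 8 mononuclear UMIs. Hist1h2be had 5.54 and 4.27, from 1 and 2 mononuclear UMIs. H2A genes turned to -0.30 (-0.74 to 0.15) in the splenectomy library, and H1 genes to -0.32 (-0.74 to 0.10) in the sham library. Hist1h2bc had 173.7 CPM in neutrophil-like and 35.1 CPM in mononuclear cells of that window in the splenectomy library (log2 2.31), and 208.2 against 40.9 CPM in the sham library (log2 2.35). Hist1h4i had 57.7 against 11.4 CPM in the splenectomy library (log2 2.34), and 84.1 against 12.3 CPM in the sham library (log2 2.78). Hist1h1c did not keep a like ratio in both: 53.4 against 12.3 CPM in the splenectomy library (log2 2.12), and 47.0 against 41.8 CPM in the sham library (log2 0.17, -0.31 to 0.67).

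The share of cells with a UMI was compared at 1 depth by thinning each cell to 2000 UMIs, which left out 120 splenectomy and 240 sham neutrophil-like cells below that depth. At that depth Hist1h2bc had a UMI in 26.7% of 1482 neutrophil-like cells (95% exact Clopper-Pearson interval 24.5 to 29.1) in the splenectomy library and 28.3% of 2055 in the sham library. In monocyte-like cells the share was 3.24% in the splenectomy library and 2.95% in the sham library, and in macrophage-like cells 6.51% and 8.26%. In T cell-like cells it was 0 of 67 in the splenectomy library, which allows a share of cells with a UMI at this depth of up to 4.48% by a floor of 3 cells and 5.36% by the exact interval, and 3.13% in the sham library. Unthinned, Hist1h2bc had a UMI in 38.7% and 37.2% of neutrophil-like cells and 16.6% and 16.9% of monocyte-like cells, splenectomy before sham. Any histone UMI was found, after thinning, in 49.8% and 50.1% of neutrophil-like, 21.9% and 20.1% of monocyte-like, 24.9% and 24.5% of macrophage-like, 69.3% and 75.0% of B cell-like and 55.2% and 62.5% of T cell-like cells, splenectomy before sham.

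The level of Hist1h2bc in cells without Mki67 or Top2a was ordered by class. Among the 8 compared classes it was highest in neutrophil-like cells, at 182.9 CPM in the splenectomy library and 205.8 CPM in the sham library. Endothelial cell-like cells were next, at 108.9 and 160.1 CPM. Macrophage-like cells followed in the sham library at 42.6 CPM, against 44.0 CPM in the splenectomy library. Conventional dendritic cell-like cells had 59.0 CPM in the splenectomy library and 20.6 CPM in the sham library, and B cell-like cells had 57.9 and 24.0 CPM, so the places of these classes were not the same in both libraries. Monocyte-like cells had 19.8 CPM in the splenectomy library and 19.0 CPM in the sham library, and T cell-like cells had the lowest level, 6.24 and 16.3 CPM. The 4 platelet or megakaryocyte-like cells of the splenectomy library held 90 histone UMIs of 9291, 49 of them Hist1h2bc, and the 2 of the sham library held 57 of 7385, 34 of them Hist1h2bc. These few cells are outside the compared classes, and Hist1h2bc was a larger share of their UMIs than in neutrophil-like cells.

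Lymphocyte-like cells without Mki67 or Top2a had several members at high levels. B cell-like cells had 120.6 CPM of Hist1h1e in the splenectomy library and 110.5 CPM in the sham library, and 77.2 and 110.5 CPM of Hist1h4d. They also had 69.9 CPM of Hist1h2ap in the splenectomy library and 91.3 CPM in the sham library, and 115.8 and 64.9 CPM of Hist1h1c. T cell-like cells had 93.6 CPM of Hist1h4d in the splenectomy library and 42.5 CPM in the sham library, and 56.2 and 71.9 CPM of Hist1h1c. In total, B cell-like cells without Mki67 or Top2a had 759.8 histone CPM in the splenectomy library and 742.5 CPM in the sham library, the highest of the 8 compared classes, and T cell-like cells had 533.5 and 438.0 CPM.

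**Figure D3:**
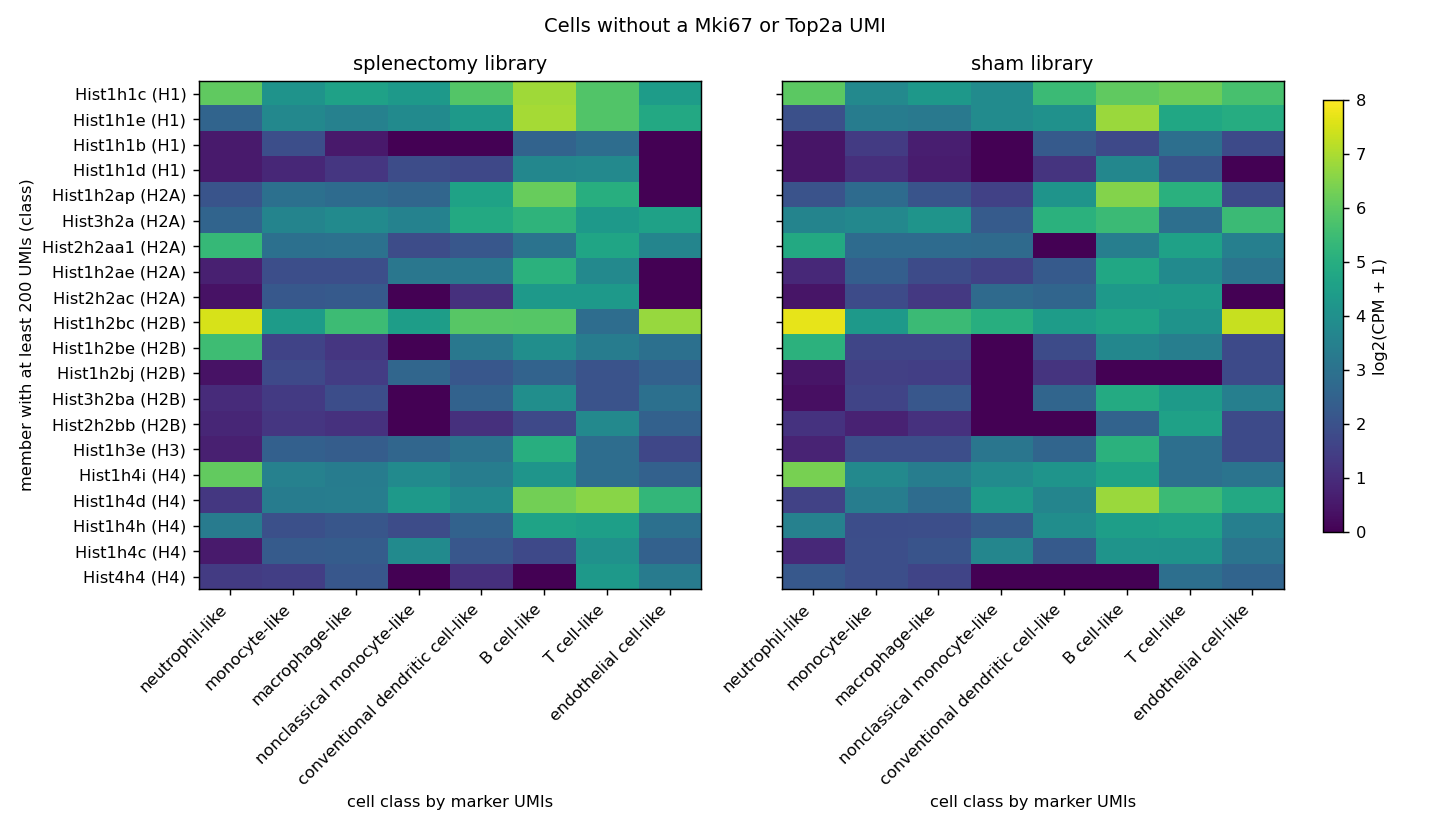
Level of each of the 20 members with at least 200 UMIs (rows) in the 8 compared cell classes (columns), in cells without a Mki67 or Top2a UMI, as log2(CPM + 1) by colour, in the splenectomy library (left) and the sham library (right). Hist1h2bc, Hist1h4i, Hist1h2be and Hist2h2aa1 are highest in neutrophil-like cells, and Hist1h1e and Hist1h4d are high in B cell-like cells in both libraries.

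H2A and H2B genes often lie head to head, and 12 such pairs with starts at most 400 bases apart were found. Their members could differ widely in UMIs. Hist1h2ap had 2363 UMIs over both libraries and its neighbour Hist1h2br, 236 bases away, had 145. Under 10% of the 50-base words of either transcript are unique, so neither count can be told fully from near-identical copies. Cells with Mki67 or Top2a held 68.5% and 79.0% of the UMIs of Hist1h2ap but 8.86% and 22.7% of those of Hist1h2br, splenectomy before sham. The pair of Hist1h2bc (5518 UMIs) and Hist1h2ac (198 UMIs), 251 bases apart, was uneven towards the H2B gene. Hist1h2ae had 804 UMIs and Hist1h2bg, 176 bases away, had 102, and cells with Mki67 or Top2a held 64.6% and 66.5% of the UMIs of Hist1h2ae against 25.5% and 18.2% of those of Hist1h2bg. The neighbours Hist1h2br, Hist1h2ac and Hist1h2bg were named for their position, after their values were seen.

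The histone level also moved with the depth of a cell. Among monocyte-like and macrophage-like cells without Mki67 or Top2a, cells under 4000 UMIs had 1499 histone CPM (753 UMIs) and cells of at least 8000 UMIs had 126.9 CPM (3528 UMIs) in the splenectomy library (log2 3.56). Sham cells had 1056 CPM (641 UMIs) and 117.0 CPM (3572 UMIs), a log2 ratio of 3.17. Of 20 members tested in the splenectomy library, 18 were at least 1.5-fold higher in the shallow cells, against 41.7% of 9610 features, and none was lower, against 22.0%. In the sham library 16 of 17 were higher, against 35.2% of 9812 features, and none was lower, against 18.5%. The median log2 ratio over the members was 3.79 in the splenectomy library and 3.51 in the sham library, and over all features it was 0.32 and 0.21. Most shallow histone UMIs came from 1 cluster that no marker list named, with a median of 1583 UMIs a cell, whose leading genes include Gm26917, Rmrp, Gm42418 and Hist1h1e itself. It held 712 of the 753 histone UMIs and 167 of the 259 shallow cells of the splenectomy library, and 551 of 641 histone UMIs and 143 of 322 shallow cells of the sham library. Another unnamed cluster of shallow cells held 41 splenectomy and 92 sham cells with 6 and 28 histone UMIs. In the shallow cells of all other clusters the level was 279.4 CPM in the splenectomy library and 294.1 CPM in the sham library.

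Some shallow cells also held more histone UMIs in absolute number. Cells of 1000 to under 2000 UMIs held a mean of 3.33 histone UMIs each in the splenectomy library and 1.97 in the sham library. The deeper cells of 8000 to under 16000 UMIs held 1.74 and 1.61. H3 genes had the largest ratio of shallow to deep cells, with log2 values of 4.78 in the splenectomy library and 4.42 in the sham library, and H2B genes the smallest, 2.71 and 2.48. Hist1h1e had 244.9 CPM in the shallow and 7.12 CPM in the deep cells of the splenectomy library (log2 5.10), and 184.5 against 5.11 CPM in the sham library (log2 5.17). Hist1h2bc had 67.7 against 27.7 CPM in the splenectomy library (log2 1.29), and 87.3 against 27.2 CPM in the sham library (log2 1.68).

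The share of UMIs from Gm42418, a feature that overlaps ribosomal RNA sequence, moved in the same way. It was 21.6% in cells of 1000 to under 2000 UMIs and 2.88% in cells of 8000 to under 16000 UMIs of the splenectomy library, and 19.9% and 3.33% in the sham library. Its part in the histone level was not tested. Neutrophil-like cells showed the gradient less: 569 CPM at 1000 to under 2000 UMIs and 375 CPM at 8000 to under 16000 UMIs in the splenectomy library, and 480 against 466 CPM in the sham library, with Gm42418 at 9.22% and 2.53% and at 7.64% and 2.82%. Of the replacement histones, 2 of 9 were at least 1.5-fold higher and 5 lower in the shallow mononuclear cells of the splenectomy library, against 41.7% and 22.0% of all features, and 2 were higher and 3 lower in the sham library, against 35.2% and 18.5%.

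**Figure D4:**
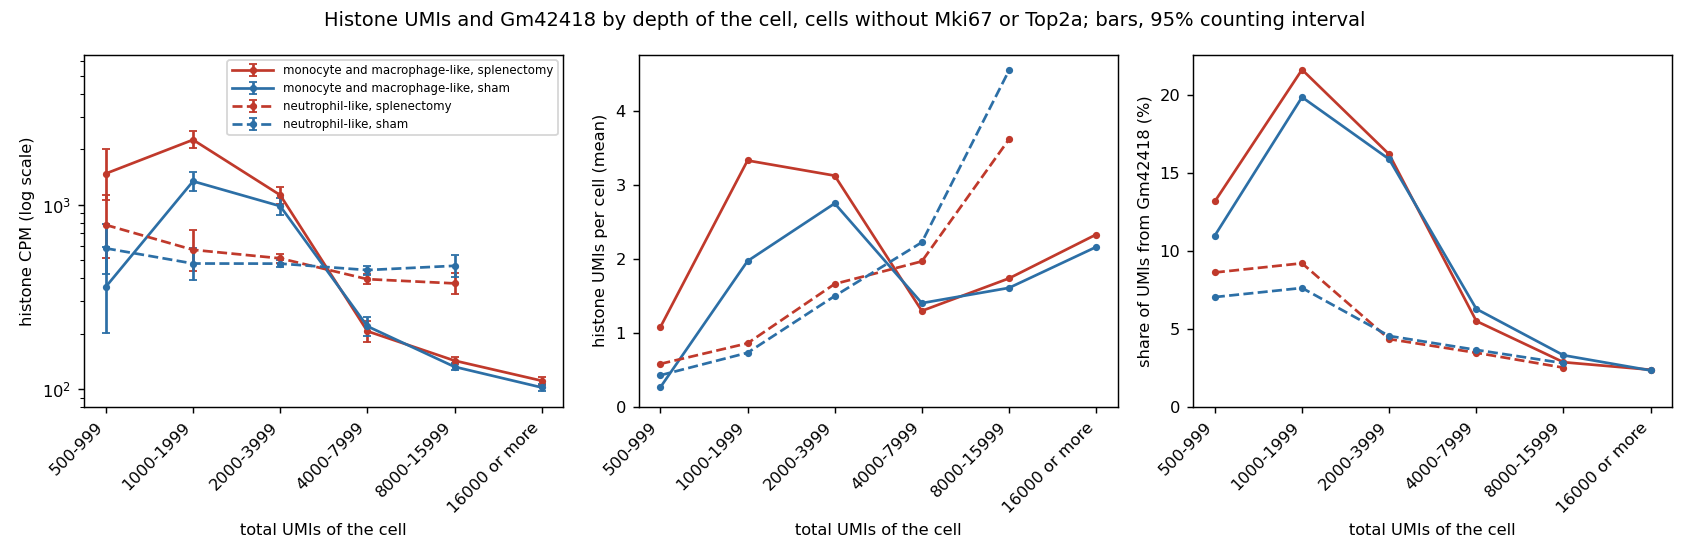
Histone CPM with 95% counting intervals on a logarithmic axis (left), mean histone UMIs per cell (middle) and the share of UMIs from Gm42418 in percent (right), by the number of UMIs of a cell, in cells without a Mki67 or Top2a UMI. Solid lines are monocyte-like and macrophage-like cells and dashed lines neutrophil-like cells, for the splenectomy and the sham library, and the mononuclear cells below 4000 UMIs are high in CPM and in Gm42418, other than the sham cells of 500 to under 1000 UMIs, which hold 0.268 histone UMIs each.

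Between the libraries, the members differed little over all kept cells. Of the 43 members, 1 was at least 1.5-fold higher in the splenectomy library, against 3.27% of 12183 features, and 3 were at least 1.5-fold lower, against 3.57%. The median log2 ratio of the splenectomy over the sham library was 0.08 over the members and -0.01 over all features. The counting interval lay above 0 for 4 members, below 0 for 9 and held 0 for 30, and of all 12183 features it lay above 0 for 18.5% and below 0 for 20.5%. By class, H3 genes had 14.9 CPM in the splenectomy library and 12.97 CPM in the sham library (log2 0.20, 0.04 to 0.36). H2A genes had 64.7 CPM in the splenectomy library and 72.6 CPM in the sham library (log2 -0.17), and H4 genes had 49.3 and 55.7 CPM (log2 -0.18). H2B genes stood at 79.3 and 84.9 CPM (log2 -0.10) and H1 genes at 57.4 and 55.0 CPM (log2 0.06).

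Of the named members, Hist1h3e had the largest log2 ratio of the splenectomy over the sham library, 0.44 (0.18 to 0.71). Hist3h2ba had a log2 ratio of -0.41, and Hist1h2ap, Hist1h4i and Hist1h1b each had -0.36. Hist1h2ap and Hist1h1b lay mostly in cells with Mki67 or Top2a, and in cells without them their order turned round, with log2 ratios of 0.26 and 0.72.

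Within classes the libraries differed in both directions. Macrophage-like cells (915 and 1130) had 251.1 histone CPM in the splenectomy library and 176.3 CPM in the sham library (log2 0.51, 0.44 to 0.58). Monocyte-like cells (1595 and 1576) had 139.4 CPM in the splenectomy library and 157.8 CPM in the sham library (log2 -0.18). Neutrophil-like cells (1602 and 2295) had 447.6 and 462.2 CPM, a log2 ratio of -0.05. Without the cells that had a Mki67 or Top2a UMI, macrophage-like cells had 172.4 CPM in the splenectomy library and 149.9 CPM in the sham library (log2 0.20), and monocyte-like cells had 142.3 and 130.4 CPM (log2 0.13).

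In macrophage-like cells 10 of 19 members were at least 1.5-fold higher in the splenectomy library, against 3.23% of 10011 features, and 1 was at least 1.5-fold lower, against 3.27%. The median log2 ratio was 0.67 over the members and -0.02 over all features. Hist1h2ap had 30.03 CPM in splenectomy and 12.6 CPM in sham macrophage-like cells (log2 1.25), and Hist1h1b had 7.60 and 3.81 CPM (log2 1.0). Hist2h2ac had 4.79 CPM in splenectomy and 1.94 CPM in sham macrophage-like cells (log2 1.30), and Hist1h3e had 5.93 and 2.65 CPM (log2 1.16). The 7 splenectomy cells with at least 50 histone UMIs held 34.6% of the histone UMIs of that class, and the 2 sham cells held 16.2%. Of 19 mitosis genes, 13 were also at least 1.5-fold higher in splenectomy macrophage-like cells (median log2 1.32), among them Cenpf, a kinetochore protein, at 5.85 CPM in the splenectomy library and 0.452 CPM in the sham library. Of 22 DNA replication genes, 4 were at least 1.5-fold higher.

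In monocyte-like cells none of 19 members was at least 1.5-fold higher in the splenectomy library, against 2.81% of 9977 features, and 3 were at least 1.5-fold lower, against 4.07%. Hist1h2ap had 6.399 CPM in splenectomy and 17.2 CPM in sham monocyte-like cells (log2 -1.43), and Hist1h2ae had 2.67 and 7.73 CPM (log2 -1.53). Hist1h1b had 2.72 CPM in splenectomy and 5.37 CPM in sham monocyte-like cells (log2 -0.98). These are members that lay mostly in cells with Mki67 or Top2a, and the 3 sham monocyte-like cells with at least 50 histone UMIs held 17.9% of the class's histone UMIs.

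In neutrophil-like cells 2 of 10 members were at least 1.5-fold higher in the splenectomy library, against 3.80% of 7264 features, and 1 was at least 1.5-fold lower, against 8.19%. The lower one, Hist3h2a, had 4.98 CPM in splenectomy and 11.1 CPM in sham neutrophil-like cells (log2 -1.15, -1.78 to -0.55). The higher ones were Hist1h2br, at 5.14 and 2.79 CPM (33 and 23 UMIs, log2 0.88, 0.07 to 1.71), and Hist1h1e, at 4.98 and 3.04 CPM (32 and 25 UMIs, log2 0.71). The interval of Hist1h1e, -0.09 to 1.53, holds 0. Hist2h2aa1 had 40.6 CPM in splenectomy and 28.3 CPM in sham neutrophil-like cells (log2 0.52), Hist1h4i had 66.3 and 80.4 CPM (log2 -0.28), and Hist1h2bc had 183.9 and 204.5 CPM (log2 -0.15).

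The small classes are given with and without the cells that had Mki67 or Top2a. B cell-like cells (111 and 109) had 1865 CPM in the splenectomy library and 735.2 CPM in the sham library (log2 1.34), but 759.8 and 742.5 CPM without Mki67 or Top2a (log2 0.03). T cell-like cells (74 and 68) had 553.8 CPM in the splenectomy library and 1415 CPM in the sham library (log2 -1.35), but 533.5 and 438.0 CPM without Mki67 or Top2a (log2 0.28). Conventional dendritic cell-like cells (77 and 76) had 482.4 and 633.4 CPM (log2 -0.39), and 286.7 and 242.9 CPM without (log2 0.24). In endothelial cell-like cells, which a CD45 isolation should leave out, the values were 315.5 and 430.1 CPM (log2 -0.45), and 315.5 and 405.4 CPM without (log2 -0.36).

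**Figure D5:**
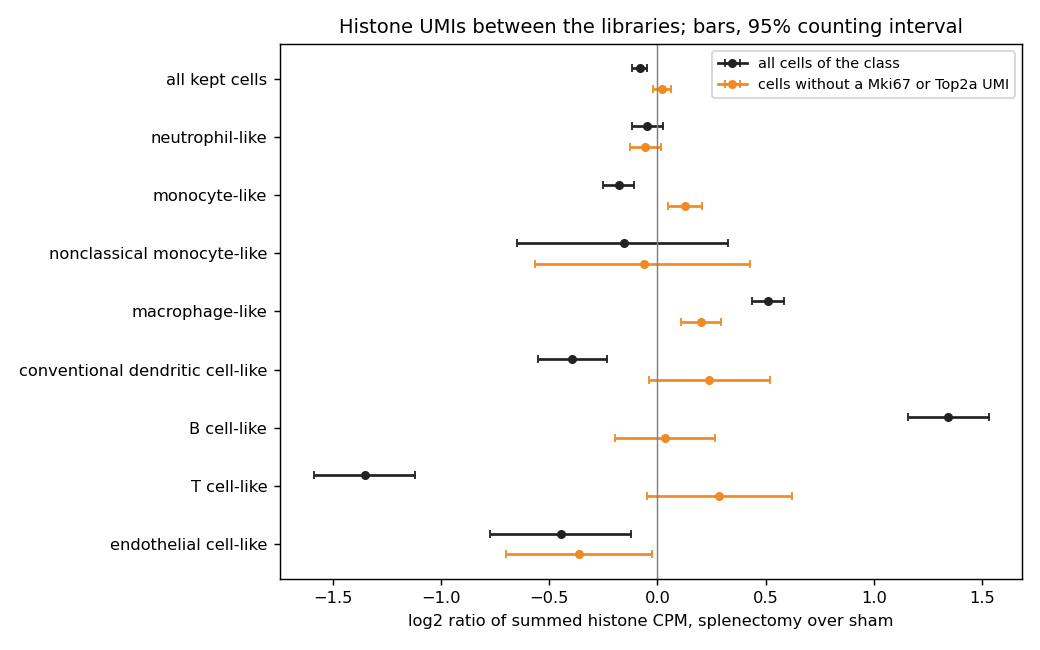
Log2 ratio of histone CPM in the splenectomy over the sham library, for all kept cells and the 8 compared cell classes, over all cells and over cells without a Mki67 or Top2a UMI, with 95% counting intervals. Over all cells the B cell-like ratio is 1.34 and the T cell-like ratio -1.35, and without the cells that have a Mki67 or Top2a UMI they are 0.03 and 0.28.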

How the data were processed

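Libraries were made with a 3′ v3 droplet kit from poly(A) RNA, per the labels. The deposited UMI counts per gene and cell were made by the authors with Cell Ranger 5.0.0, per the file headers, on mm10 with STAR, per the submitters' processing notes, and no source used here names the annotation. Cells with under 200 genes or over 20% mitochondrial UMIs were left out, as were 200 splenectomy and 302 sham cells with the highest scrublet doublet scores (8 per 1000 for each 1000 cells). Of 5087 splenectomy and 6210 sham barcodes, 4805 and 5838 were kept. Each cell took the class of the highest of 16 marker lists, if at least 3 of its markers were detected, and the 8 classes with at least 50 cells in both libraries were compared. Members were taken by symbol and lists by function, both with earlier results of these data known. CPM and ratios have exact 95% intervals for counting error, and a ratio needed 50 UMIs. Calls are at least 1.5-fold. No test across samples was possible. Members with at least 200 UMIs were named with values, and of the lists the highest and lowest by ratio. A gene at 0 on one side was set to 3 counts. Transcripts and positions are from GENCODE vM21 (GRCm38) and promoters from RefSeq GRCm38.p6. No proteins or genome sequence were used. The tools were Python 3.11.15 with scanpy 1.11.5, scipy 1.17.1 and numpy 2.4.6, and edgeR 4.0.16 in R 4.3.3 for the normalization factors of the alternatives. The alternatives were other filters, normalizations, definitions of classes and of cells with Mki67 or Top2a, and thinning to other depths.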

Additional observations from a re-analysis of the deposited data

Results flagged for a closer look

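The library difference in histone CPM pointed in opposite directions in different cell classes, with 95% counting intervals on opposite sides of 0. The log2 ratio of the splenectomy over the sham library was 0.51 in macrophage-like cells and 1.34 in B cell-like cells. It was -0.18 in monocyte-like cells, -0.39 in conventional dendritic cell-like cells, -1.35 in T cell-like cells and -0.45 in endothelial cell-like cells. With 1 library per group, the difference between classes was not tested. Without cells that had a Mki67 or Top2a UMI, the ratios were 0.20 in macrophage-like, 0.03 in B cell-like, 0.13 in monocyte-like, 0.24 in conventional dendritic cell-like, 0.28 in T cell-like and -0.36 in endothelial cell-like cells.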

How the results depend on the processing

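No paired analysis was possible because each group is 1 library. Of 16 other settings and 3 more chosen after seeing the data (at least 4000 UMIs, under 10% Gm42418, without the 5 cells with most histone UMIs), these moved or turned a summed value beyond its counting interval, and the cause was not tested. All cells, splenectomy over sham (log2 -0.08): 0.019 without Mki67 or Top2a cells and 0.053 with equal class weights; there, without Mki67 or Top2a cells, H2A was 0.084, Hist1h1b 0.72 and Hist1h2ap 0.26, and Hist1h2bc was 0.0063 at 4000 UMIs or more. Neutrophil-like cells (-0.05) gave 0.027 under median-of-ratios scaling, 0.033 without the member with most UMIs and -0.15 at 4000 or more. Monocyte-like cells (-0.18) gave -0.28 at 4000 or more, -0.28 under 10% Gm42418, 0.068 without 5 cells, 0.13 without Mki67 or Top2a and 0.037 by clusters. Macrophage-like cells (0.51) gave 0.59 without the top member, 0.59 under 10% Gm42418, 0.29 without 5 cells, 0.62 for clear leads, 0.20 without Mki67 or Top2a and 0.30 by clusters. Without 5 cells conventional dendritic cell-like cells gave 0.14 and T cell-like cells 0.083; without Mki67 or Top2a 0.24 and 0.28, and T cell-like cells by clusters 0.36. With over without Mki67 or Top2a gave, in the splenectomy library (1.17), 1.09 without doublet removal, 1.02 by median-of-ratios, 1.03 by TMM, 1.43 without the top member, 1.60 at 4000 or more, 1.41 under 10% Gm42418, 0.24 without 5 cells, 2.29 for at least 2 UMIs, 3.31 for both genes and 1.38 thinned. In the sham library (1.71) these were 1.60, 1.59, 1.58, 2.09, 2.15, 1.84, 1.11, 2.88, 3.96 and 2.06. Turned members in the splenectomy library were Hist2h2aa1 (0.022 for 2 UMIs, 0.14 for both genes), Hist1h2be (0.27, 0.88) and, without 5 cells, Hist2h2bb (-1.22), Hist1h1d (-0.30) and Hist1h1e (-0.12); in the sham library Hist2h2aa1 (0.070 at 4000 or more, 0.20, 0.73, 1.38 thinned), Hist4h4 (1.21 thinned) and Hist1h4i (0.53 for both genes). Cells with a histone UMI at 1000 and 4000 UMIs were 30.8% and 65.8% (splenectomy) and 31.7% and 72.3% (sham) of neutrophil-like, 15.5% and 32.2%, and 13.1% and 33.9%, of monocyte-like, and 18.4% and 36.8%, and 16.1% and 36.9%, of macrophage-like cells. By clusters, monocyte-like cells had 117.6 CPM (splenectomy) and 114.7 CPM (sham) and macrophage-like cells 154.4 and 125.4 CPM. Depth limits members below 50 UMIs, given as counts only.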
